A study of Mus musculus with 7 samples.

Results

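The cytosolic ribosomal protein genes encode the proteins of the large and small subunits of the ribosome that translates messenger RNA in the cytosol. They were taken by symbol, as every row named *Rpl* or *Rps* with a number, together with *Rplp0*, *Rplp1*, *Rplp2* and *Rpsa*, without rows named as -ps pseudogenes. Each row also had to exceed an expected count of 10 in 1 library or more. Of the 50686 rows in the files, 88 carried such a symbol and 85 passed, 50 for the large and 35 for the small subunit. *Rpl3l*, *Rpl10l* and *Rps3a3* did not reach the count minimum. Of the 85 genes, 81 lie on autosomes and 4 on chromosome X (*Rpl10*, *Rpl36a*, *Rpl39* and *Rps4x*). GENCODE vM21 annotates 4 of the 81 as pseudogenes (*Rps3a2*, *Rps4l*, *Rps12l1* and *Rpl6l*), and the other 77 as protein-coding.

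The libraries held polyadenylated RNA of microglia sorted by FACS, with antibodies to CD11b and CD45, from the forebrain of male C57BL/6 mice, 3 old (21 to 22 months) and 4 young (3 to 4 months). All mice had undergone a transient occlusion of the middle cerebral artery 4 days before, so what the arterial occlusion itself changes cannot be read from these libraries. Apart from the anaesthesia and analgesia of the surgery, the mice received no drug. In both ages the sorted cells were Bodipy+, that is, stained by a dye of neutral lipids. Each library comes from 1 mouse, named here by the code of its label: 14C, 18C, 23C and 29C for young, and 2posI, 3posI and 4posI for old mice. Age was the only difference named between the groups. The form of the codes also differs between the ages, and anything it stands for cannot be told apart from age. The cDNA was amplified from a low RNA input and the libraries are not stranded.

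Ribosomal proteins assemble on ribosomal RNA in the nucleolus, in nearly equal numbers, and the surplus of unassembled proteins is degraded. Their mRNAs are short and abundant, and most begin with a run of pyrimidines, the TOP motif, through which the mTOR pathway and the binding protein Larp1 set how actively they are translated. In the mouse genome nearly every ribosomal protein gene has processed pseudogenes, which are copies of its spliced mRNA, so that a short read can match several places.

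That feature can be seen in the sequence of *Rpl5*, the member that was lower in old mice by the largest amount. The stretches shown are bases 74 to 148 of its coding sequence (GRCm38 chr5:107902022-107902096, plus strand) and the same bases of the pseudogene *Gm15500* (chr7:114706016-114706090, minus strand), from GENCODE vM21. They are shown in lower case throughout because no base differs, and the same held for all 891 bases of the coding sequence.

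Rpl5: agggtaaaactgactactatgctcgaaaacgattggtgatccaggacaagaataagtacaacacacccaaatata
Gm15500: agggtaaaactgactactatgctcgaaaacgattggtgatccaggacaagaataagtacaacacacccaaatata

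By contrast, the paralogs *Rps27l* and *Rps27* differ at many bases of the stretch shown next, so reads within it can be told apart. This holds for that stretch only. Of the windows of 50 bases in their transcripts, 16.2% for *Rps27l* and 46.2% for *Rps27* were shared with transcripts of other genes. Neither gene had whole expected counts in all libraries. Bases 7 to 81 of their coding sequences (chr9:66946831-66946905, plus strand, and chr3:90213227-90213301, minus strand) are shown with the 21 bases that differ in capitals. The longest annotated coding sequences, 315 bases for *Rps27l* and 252 for *Rps27*, were 69.8% identical over the 252 bases aligned. No gaps were allowed and no other isoform was compared, so the value is not the best possible match of the paralogs.

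Rps27l: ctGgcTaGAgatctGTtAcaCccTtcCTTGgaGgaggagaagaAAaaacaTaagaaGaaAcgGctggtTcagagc
Rps27: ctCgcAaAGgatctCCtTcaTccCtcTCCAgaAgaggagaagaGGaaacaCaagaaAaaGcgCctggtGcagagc

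The members also share sequence around their start sites, which the choice by symbol did not use. RefSeq promoter windows of 300 bases (GRCm38.p6) were found for 61 of the 85 genes, 72 windows in all. A C followed by at least 5 pyrimidines, on the sense strand and starting from 15 bases before to 20 bases after the annotated start, was found in 40 of the 72 windows (55.6%), against 26.3% of all 32851 promoter windows and 26.9% of those of other genes with an expected count above 10. The letters CTTTCC, sense and within 50 bases of the start, were in 30.6% of the members' windows against 4.69% of all and 4.26% of those other genes. The letters CCGGAAG, on either strand of the whole window, were in 37.5% against 8.86% of all and 15.5% of those other genes. TATAAA on either strand was in 9.72%, below the 13.6% of all and above the 7.77% of those other genes. CTTTCC is itself a C followed by 5 pyrimidines, so the first and second searches overlap. A match is a description of these letters and not a measured start or binding site. The run is given in capitals in 30 bases of *Rps6* (chr4:86857349-86857378, minus strand), *Rpl38* (chr11:114668569-114668598, plus strand) and *Rps27* (chr3:90213631-90213660, minus strand), chosen among the genes named below because the run lies at the annotated start.

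Rps6: ggaagtcgggCCTCTTTTTCgtgacgcctc
Rpl38: gaagcctcgttCTTTCCCCgttctcttcgg
Rps27: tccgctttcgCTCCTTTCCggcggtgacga

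Expected counts summed to between 36574083 and 53002386 per library, and TMM factors lay between 0.952 and 1.05. None of the 9 autosomal microglial markers tested was called between ages. The 10 markers together had 17052 to 28187 CPM in young and 9366 to 21637 CPM in old mice. For these marker sums, CPM are counts scaled by the library's total of expected counts, without TMM factors. For single genes below, CPM are counts scaled by the TMM-adjusted library size. Mouse 3posI had the lowest value. The summed level of 4 monocyte markers was 6.95 to 23.3 CPM in young and 30.8 to 446 CPM in old mice, without overlap, and that of 4 markers of border-associated macrophages 35.0 to 160.3 CPM and 53.3 to 394 CPM, with 3posI highest for both. In the other direction, 4 endothelial markers summed to 49.4 to 94.2 CPM in young and 40.5 to 49.2 CPM in old mice, without overlap. The sums of neutrophil and T cell markers overlapped between ages. Genes annotated as nuclear or mitochondrial ribosomal RNA took 4.14% to 4.99% of the expected counts in young and 2.21% to 3.37% in old mice, without overlap. The part of these differences in the results for ribosomal protein genes was not tested. In bulk RNA of sorted cells, fewer cells of a type and less RNA per cell cannot be told apart.

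Together the 85 members took a small and similar share of the libraries at both ages. They held 1.81%, 2.08%, 1.503% and 1.86% of the expected counts in young mice 14C, 18C, 23C and 29C, and 2.12%, 1.84% and 2.02% in old mice 2posI, 3posI and 4posI. The groups overlapped, at means of 1.81% ± 0.239 (SD, n = 4) for young and 1.99% ± 0.142 (SD, n = 3) for old mice. Large subunit genes took 1.10% ± 0.140 (SD, n = 4) and 1.18% ± 0.0876 (SD, n = 3), and small subunit genes 0.717% ± 0.0988 (SD, n = 4) and 0.810% ± 0.0544 (SD, n = 3). As a share of TPM, which sets counts against transcript length, the members held 4.55% ± 0.625 (SD, n = 4) for young against 4.65% ± 0.294 (SD, n = 3) for old mice. Per length, abundant members in young mice were *Rpl41* at 2576 ± 365 TPM (SD, n = 4) and *Rps27* at 2127 ± 613 TPM (SD, n = 4). *Rpl41* encodes the shortest protein of the large subunit. The spreads of these genes overlapped.

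**Figure D1:**
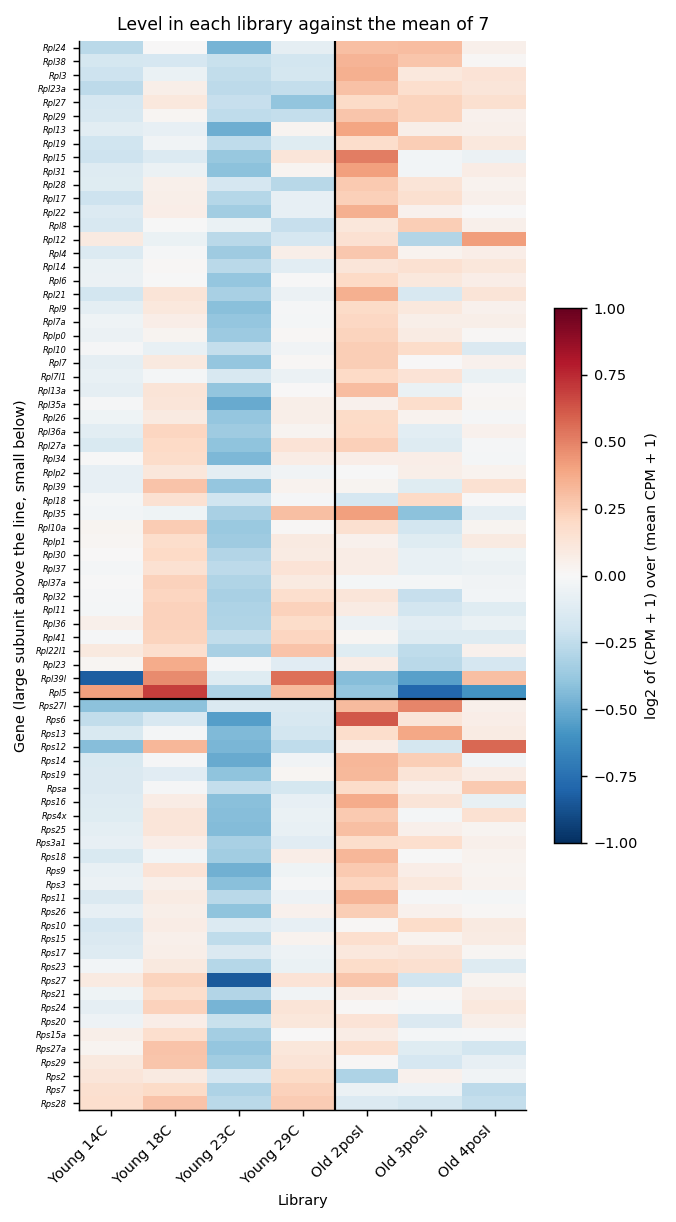
Level of 78 protein-coding members, autosomal and X-linked (rows, ordered by fold change within each subunit) in each of the 7 libraries (columns), as the log2 of (CPM + 1) over (mean CPM of the 7 libraries + 1). The column of young mouse 23C is pale to dark blue for nearly all genes, and the column of old mouse 2posI is red for most.

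Most of the members varied together between libraries of the same age. Young mouse 23C had the lowest of the 4 young values for 69 of the 81 autosomal members and the lowest of all 7 libraries for 65. Its members lay a median of 0.31 below their mean on the log2 CPM scale, whereas over all genes tested its median deviation was 0.02. Old mouse 2posI was the highest of the 3 old libraries for 55 members, at a median of 0.20 above their mean. A low young and a high old mouse both widen the difference between ages, so the results over all members were also computed without each of them.

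Old and young mice were then compared gene by gene with edgeR's quasi-likelihood test over all 17559 autosomal genes that passed the count filter (Benjamini-Hochberg adjustment). Of the 81 autosomal members, 0 had an adjusted p under 0.05, against 0.803% of all genes tested. An unadjusted p under 0.05 was found for 17 members (21.0%), close to the 18.9% of all genes tested. By direction, 16 of these 17 were higher in old mice, against 1782 of the 3326 such genes among all tested. The limma-voom test also called 0. DESeq2 called 7 of the 80 to which it gave an adjusted p (8.75%), close to the 9.07% it called over all genes with an adjusted p. They included *Rps27l*, *Rpl38*, *Rps6*, *Rpl3* and *Rpl19*, which were higher, and *Rpl5*, which was lower.

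In direction, 61 of the 81 had a log2 fold change above 0 in old mice, against 8571 of all 17559 genes (48.8%), with a median of 0.18 against -0.01 over all genes. The libraries of the 2 ages did not overlap for 19 members (23.5%), against 17.7% of all genes. Of these members 18 were higher and 1 lower in old mice, whereas over all genes 1523 were higher and 1592 lower. Of the 77 protein-coding autosomal members, 74 had a 95% confidence interval within 2-fold in either direction, and 49 had one within 1.5-fold. Without 23C, 51 of 81 members were above 0, with a median of 0.11, and without 2posI 55 of 81, with a median of 0.12. Other abundant short transcripts had a higher median, a difference that was not tested: of 563 other genes with a mean of at least 50 CPM and a length up to 1200 bases, a group chosen after the values were seen, 459 were above 0, with a median of 0.26.

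**Figure D2:**
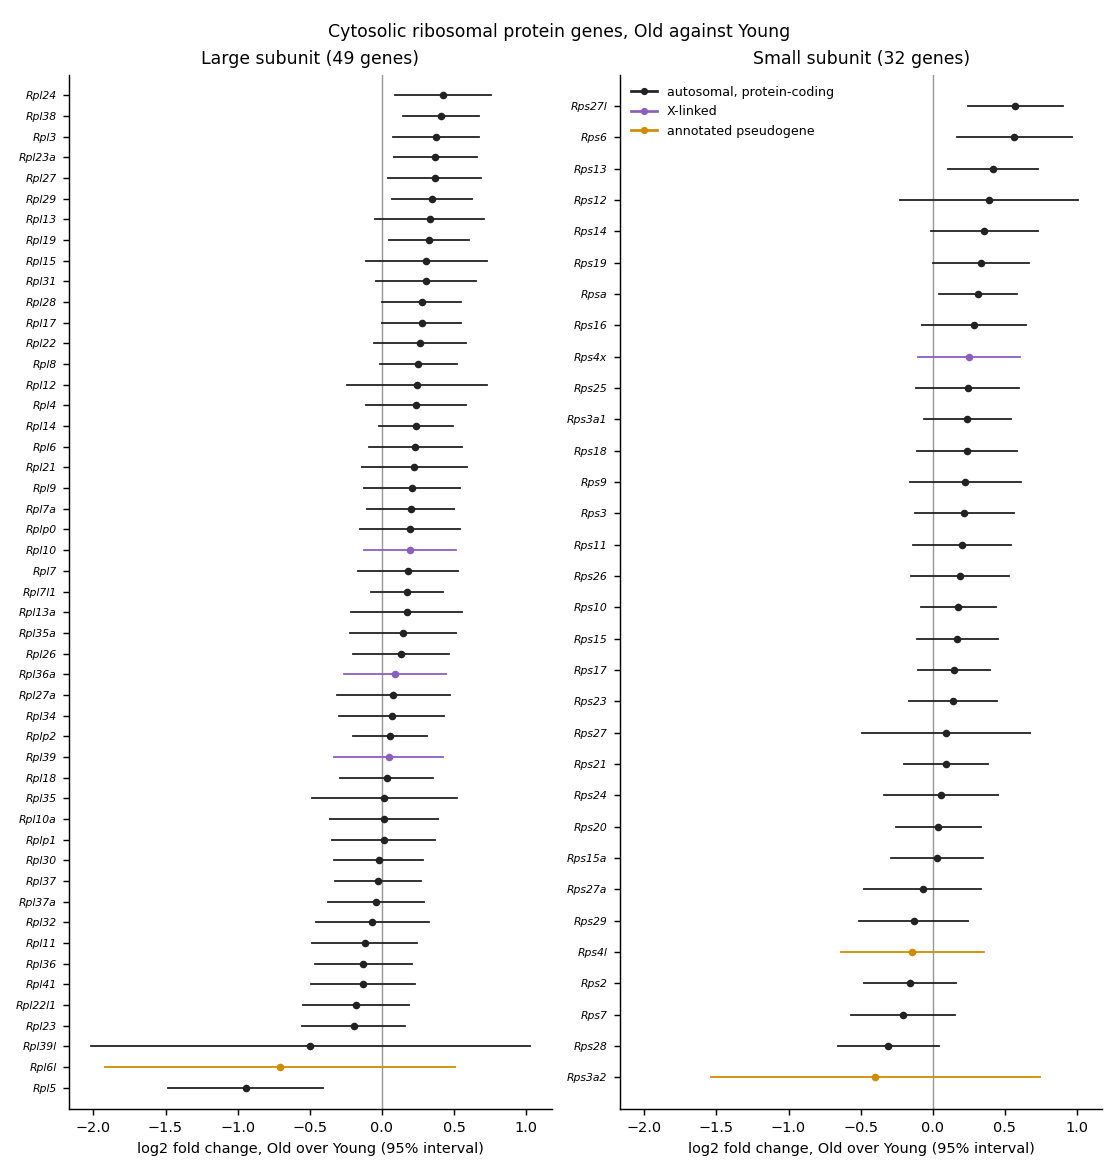
Log2 fold change of old over young mice (points) with the 95% confidence interval (bars) for 81 members, large subunit left and small subunit right, from edgeR; X-linked genes are from the fit that keeps chromosome X. Most points lie to the right of 0 and most intervals cross it, and *Rpl5* stands at -0.94 at the foot of the large subunit. *Rps12l1*, counted in 1 library, and 3 further members are left out.

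Both subunits had similar values. Of the 47 autosomal large subunit genes, 34 were above 0 (median log2 fold change 0.17, 9 with an unadjusted p under 0.05), and of the 34 small subunit genes 27 (median 0.20, 8 with an unadjusted p under 0.05). Protein-coding members alone ran from -0.94 to 0.42 in the large and from -0.31 to 0.57 in the small subunit.

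By position in the ribosome, the 3 proteins of the P stalk, which recruits elongation factors, differed least. Their log2 fold changes were 0.19 for *Rplp0*, 0.01 for *Rplp1* and 0.05 for *Rplp2*, all with 95% confidence intervals within 1.5-fold. The 7 autosomal genes for proteins of the exit tunnel and its rim, through which the nascent chain leaves, were all above 0 (median 0.27), with 2 at an unadjusted p under 0.05 (*Rpl19* and *Rpl23a*). The 3 genes of the mRNA entry site had a median of 0.22, and the 4 of the exit site one of 0.26. *Rpl5* and *Rpl11*, which bind the 5S ribosomal RNA, both lay below 0. *Rpl11* had a log2 fold change of -0.12 (SE 0.16). These groups by position were chosen after the values were seen, and no member of them passed the adjusted threshold.

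**Figure D3:**
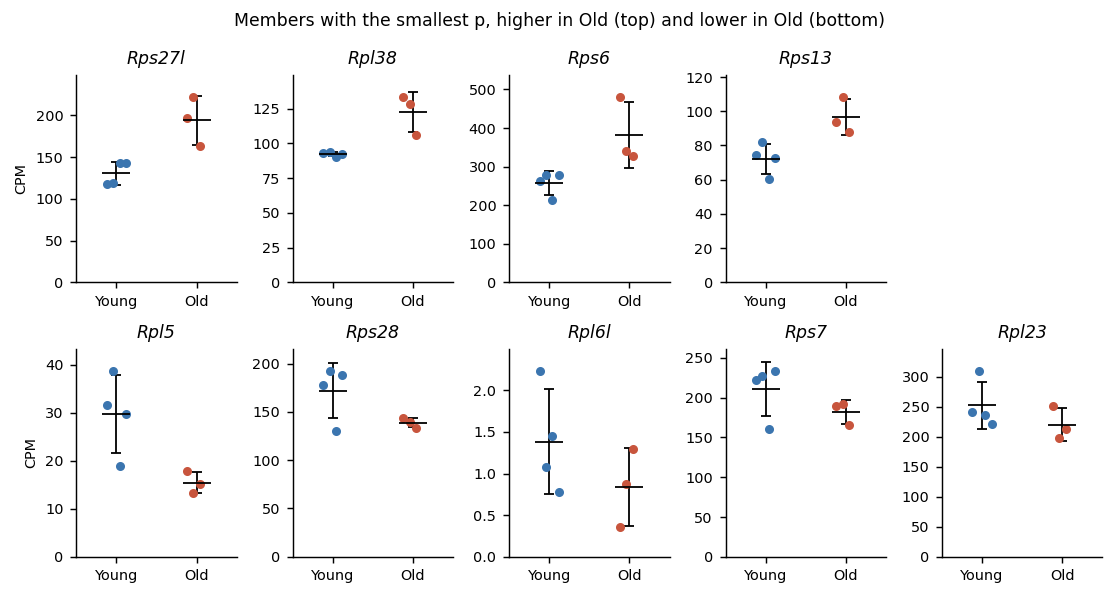
CPM in each library (points; young blue, old red) with the mean and SD (bars) of 4 autosomal members among those with the smallest p that were higher in old mice (top) and the 5 with the smallest p among those lower (bottom). In the top row and for *Rpl5* the ages do not overlap, and for *Rps28*, *Rpl6l*, *Rps7* and *Rpl23* they do.

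Of the 5 members with the smallest p among those higher in old mice, most were small subunit genes. Further down they were not the majority. At an unadjusted p under 0.05 by edgeR, 8 of the 47 large and 8 of the 34 small autosomal subunit genes were higher. The pseudogene *Rps12l1*, counted in 1 library, was among the small ones. *Rps6* (chromosome 4, 86854660 to 86857412), whose protein is the best known substrate of the S6 kinases downstream of mTOR, had 263, 278, 213 and 279 CPM in young mice 14C, 18C, 23C and 29C and 481, 339 and 327 CPM in old mice 2posI, 3posI and 4posI. The ages did not overlap, and by edgeR it was higher by 0.57 ± 0.18 (SE) on the log2 scale, at an adjusted p of 0.15. Old mouse 2posI was the highest library, and without it the log2 fold change was 0.37.

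*Rps27l* (chromosome 9, 66946086 to 66949516) is a paralog of *Rps27* known as a target of p53. It had 118, 119, 143 and 143 CPM in young and 197, 222 and 164 CPM in old mice, a log2 difference of 0.57 ± 0.15 (SE) with an adjusted p of 0.101 by edgeR. Unlike most members, it was not lowest in 23C. *Rpl38* (chromosome 11, 114668524 to 114672331), known for a part in the translation of homeobox mRNAs, had 92.8, 93.6, 90.3 and 92.4 CPM in young and 134, 128 and 106 CPM in old mice. The young values lay close together, and edgeR gave 0.41 ± 0.11 (SE) on the log2 scale, at an adjusted p of 0.125. *Rps13* (chromosome 7, 116331505 to 116334195), near the interface of the subunits, had 74.4, 81.7, 60.5 and 72.5 CPM in young and 93.6, 108 and 87.6 CPM in old mice, a log2 difference of 0.42 ± 0.14 (SE) with an adjusted p of 0.163 by edgeR. When any 1 library was left out, the log2 fold changes of these 4 genes lay between 0.33 and 0.68.

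Among members lower in old mice, *Rpl5* was the only one whose ages did not overlap. Its own row (chromosome 5, 107900502 to 107909005) had 31.6, 38.6, 18.9 and 29.6 CPM in young and 17.8, 13.3 and 15.2 CPM in old mice. The lowest young mouse, 23C, lay just above the highest old mouse, 2posI. On the log2 scale the difference was -0.94 ± 0.24 (SE), with an adjusted p of 0.0979 by edgeR, and -1.11 to -0.79 with each library left out. The other 4 differed less, within overlapping ranges. *Rps28*, at the mRNA exit site, had 177, 192, 130 and 188 CPM in young and 143, 140 and 134 CPM in old mice, with 23C below all old mice (log2 fold change -0.31 ± 0.15 SE, adjusted p = 0.316 by edgeR). *Rps7* belongs to the small and *Rpl23* to the large subunit. *Rps7* had 222, 227, 160 and 233 CPM in young and 190, 192 and 165 CPM in old mice (-0.21 ± 0.16 SE). *Rpl23* had 242, 310, 237 and 221 CPM in young and 251, 198 and 212 CPM in old mice (-0.20 ± 0.16 SE). *Rpl6l*, an annotated pseudogene, had 0.774 to 2.23 CPM in young and 0.358 to 1.30 CPM in old mice (-0.71 ± 0.53 SE).

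The effective lengths in the files lay 48.9 bases below the gene lengths, which is what reads of about 50 bases give. Since such reads can match copies, the counts of each member were set beside those of the pseudogene rows that share sequence with it. Of the 85 members, all but 2, among them *Rpl39l*, shared at least 1 window of 50 bases with the transcripts of other genes, with a median of 38.5% of their windows, and 31 shared at least 50%. Only 3, *Rpl39l* and *Rps4l* among them, had whole expected counts in all 7 libraries (tolerance 0.001), whereas the counts of the others include reads that RSEM divided between rows. In all, 940 pseudogene rows shared a window with protein-coding genes of the choice by symbol, each counted for the gene with which it shared most. One or more such rows were found for 78 protein-coding members, and 1 row was counted for *Rpl10l*, which is not a member. For 16 of the 78 the pseudogene row with most counts was identical over the whole coding sequence, among them *Gm15500* for *Rpl5*, *Rps6-ps4* for *Rps6*, *Rpl38-ps2* for *Rpl38* and *Rps13-ps2* for *Rps13*. The rows are called copies below, although 1 shared window sufficed and not each is a copy of the gene. For *Rpl7l1* the row with most counts was *Thap6*, a transcribed unitary pseudogene, 30.8% identical without gaps.

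*Rpl5* was the member with the smallest part of its family's counts in its own row. The rows of its copies had 630, 736, 466 and 653 CPM in young and 580, 387 and 470 CPM in old mice, 99.9% of it in *Gm15500*. The own row thus held 4.50% of the family in young and 3.14% in old mice, without overlap between ages. Summed over the family, *Rpl5* was lower by a log2 value of -0.40 ± 0.20 (SE), at an adjusted p of 0.332 by edgeR. The own rows of 10 other members held under 50% of the family in young mice, among them *Rpl12* (9.97%), *Rpl27* (13.1%), *Rpl27a* (23.2%) and *Rps23* (24.4%).

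For other members the own row and the copies differed in opposite directions. The copies of *Rpl38* had 64.7, 67.0, 72.9 and 68.5 CPM in young and 47.8, 63.3 and 56.0 CPM in old mice, all old mice below all young ones, while the own row went the other way. For the family sum edgeR gave a log2 fold change of 0.15 ± 0.11 (SE) at an adjusted p of 0.487, against 0.41 for the own row. The copies of *Rpl14* went from 82.2 ± 6.64 CPM (SD, n = 4) to 60.8 ± 4.54 CPM (SD, n = 3), and its log2 fold change was 0.23 for the own row and 0.04 for the family. For *Rps6* the share of the own row was 69.8%, 65.2%, 63.2% and 71.4% in young and 91.2%, 75.6% and 72.2% in old mice, and the family sum was higher by 0.31 ± 0.14 (SE) on the log2 scale, with an adjusted p of 0.26 by edgeR. Among the 78 members with copies, the share of the own row was higher in all old than in all young mice for 17 and lower for 4. This share has no counterpart over all genes. By CPM, a different measure, the ages did not overlap for 17.7% of all genes tested. Whether the shares differ between ages was not tested.

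**Figure D4:**
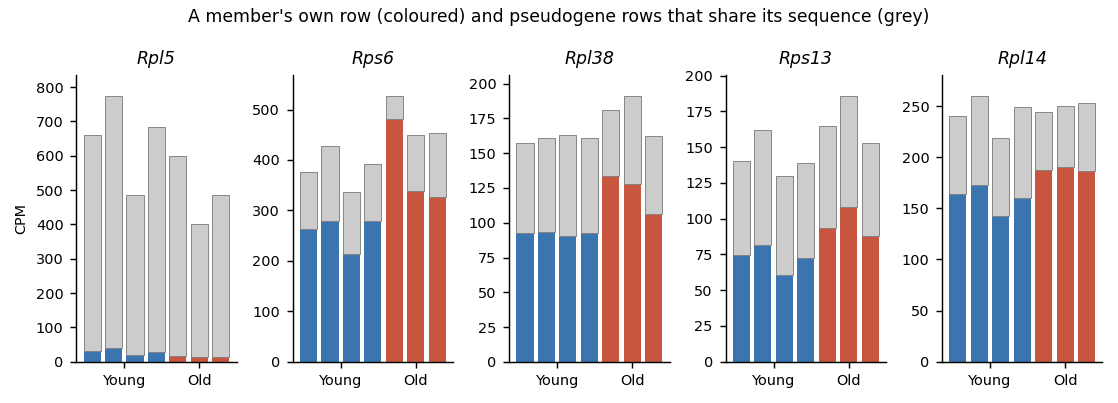
CPM of the own row (coloured: young blue, old red) and of the summed pseudogene rows that share sequence with it (grey) in each library, in the order 14C, 18C, 23C, 29C, 2posI, 3posI and 4posI, for 5 members with copies. Nearly all of the *Rpl5* family is grey, and for *Rpl38* and *Rpl14* the grey part is shorter in old mice while the coloured part is taller.

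With all copies added, an alternative chosen after the data were seen, the median log2 fold change of the 77 protein-coding members was 0.13 in place of 0.19, and 59 were above 0 in place of 60. The value came closer to 0 for 61 of them and changed sign for 3. An unadjusted p under 0.05 was left for 10 in place of 16, and 0 passed the adjusted threshold. *Rps27l* kept its value, at 0.57, and its own row held 99.9% of the family in young mice.

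Paralogs of ribosomal proteins, some of which can replace the usual protein in the ribosome, were compared with their closest members. The log2 ratio of *Rpl22l1* to *Rpl22* within a library was 0.57, 0.43, 0.35 and 0.71 in young and -0.15, 0.03 and 0.38 in old mice, a difference of -0.43 with 4posI within the young range (two-sided exact permutation test, p = 0.0571, where 3 against 4 allow 0.0286). *Rpl22l1* itself had a log2 fold change of -0.18 (SE 0.16) and *Rpl22* one of 0.26 (SE 0.14). For *Rps27l* over *Rps27* the ratio differed by 0.43 (exact permutation p = 0.4). *Rps27* was low in 23C, at 262 CPM against 501 to 550 CPM in the other young mice, and its ratio there was -0.87 against -2.21 to -1.86 in them. Without 23C the ratio differed by 0.72 and the ages did not overlap, and without 3posI it differed by 0.21. The difference for *Rpl22l1* over *Rpl22* was -0.58 to -0.31 with each library left out. *Rpl7l1* over *Rpl7* differed by -0.02 (exact permutation p = 0.83) and *Rpl39l* over *Rpl39* by -0.40 (exact permutation p = 0.629), or by -0.090 to 0.052 and -0.99 to -0.094 with each library left out. Adjusted over these 4 pairs, the exact permutation p-values were 0.229 to 0.83. *Rpl7* itself had a log2 fold change of 0.18 ± 0.15 (SE) and *Rpl7l1* one of 0.17 ± 0.11 (SE). *Rpl6*, the closest member of the pseudogene *Rpl6l*, had 477, 495, 380 and 495 CPM in young and 571, 535 and 520 CPM in old mice, without overlap (0.23 ± 0.14 SE). *Rpl39l*, known as a testis paralog, was scarce, at 0.368 to 2.56 CPM in young and 0.664 to 1.99 CPM in old mice.

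The remaining paralog rows are annotated pseudogenes. *Rps4l* had 24.8 ± 2.12 CPM (SD, n = 4) in young mice and 22.4 ± 7.82 CPM (SD, n = 3) in old ones. *Rps12l1* was counted in 1 library only, 4posI, at 3.39 CPM, and all of its windows are shared with other genes. No fold is given for it, and its unadjusted p under 0.05 is among the 17 above. Its closest member *Rps12* had 8.41 to 15.2 CPM in young and 10.5 to 18.3 CPM in old mice.

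The 4 members on chromosome X came from a fit that kept chromosomes X and Y and the mitochondrial genome, in which 0.754% of 18173 genes were called. None of the 4 was called by edgeR, limma-voom or DESeq2, and none had an unadjusted p under 0.05 by edgeR. The log2 fold changes were 0.25 (SE 0.16) for *Rps4x*, 0.19 (SE 0.14) for *Rpl10*, which joins the large subunit late in its assembly, 0.09 (SE 0.15) for *Rpl36a* and 0.05 (SE 0.16) for *Rpl39*, which lines the exit tunnel. The copies of *Rpl39* had 20.8 ± 3.29 CPM (SD, n = 4) in young mice and 12.7 ± 3.23 CPM (SD, n = 3) in old ones, without overlap, and its family sum had a log2 fold change of -0.10.

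**Figure D5:**
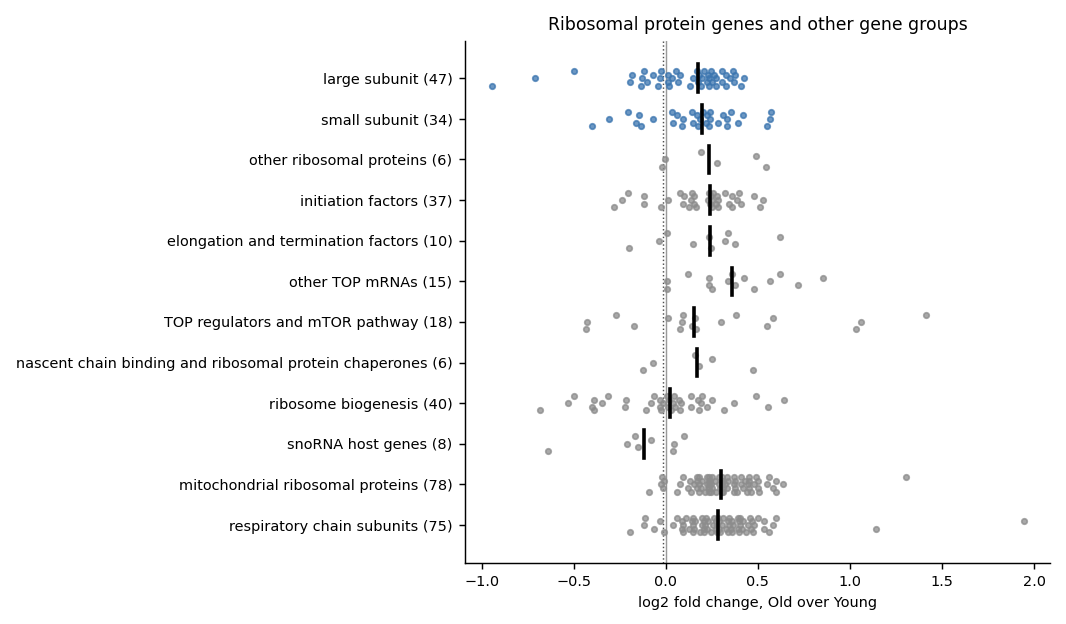
Log2 fold change of old over young mice for single genes (points) and the median (black bars) of the autosomal ribosomal protein genes of each subunit (blue) and of other gene groups (grey), with the number of genes tested in parentheses. The dotted line marks the median of all genes tested, -0.01. The medians of the subunits, 0.17 and 0.20, lie below those of the mitochondrial ribosomal proteins, 0.30, and of the respiratory chain subunits, 0.28. *Rps12l1* enters the median of the small subunit but is not drawn.

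The genes that work with the ribosome were read from the same fit. Of 6 further rows listed as ribosomal proteins that the choice by symbol left out, 4 were above 0 and 0 were called. One of the 6, *Rpl37rt* (-0.02 ± 0.16 SE), is annotated as a transcribed processed pseudogene and also counts among the copies of *Rpl37*. *Rack1*, a scaffold on the head of the small subunit, had 159, 159, 157 and 160 CPM in young and 244, 224 and 228 CPM in old mice (log2 fold change 0.55 ± 0.10 SE, adjusted p = 0.0544 by edgeR). *Fau*, whose product is a ubiquitin-like protein fused to a small subunit protein, was also without overlap between ages (0.49 ± 0.25 SE), and 23C was its lowest library (55.3 CPM against 103 to 122 CPM in the other young mice).

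Other mRNAs with a TOP motif, 15 in number, were all above 0, with a median log2 fold change of 0.36, and 8 had an unadjusted p under 0.05, which 18.9% of all genes tested had. One of the 15 was called, *Tpt1*, which encodes the translationally controlled tumour protein. It had 245, 215, 240 and 231 CPM in young and 413, 497 and 354 CPM in old mice (0.86 ± 0.14 SE, adjusted p = 0.0431 by edgeR), but lost the threshold in 6 of the 7 fits that leave out a library, with adjusted p from 0.0536 to 0.151 (edgeR), and with the length trend removed (0.75, adjusted p = 0.0628 by edgeR). Its log2 fold change was 0.72 to 0.96 with each library left out. *Eef2*, the elongation factor of translocation, was in the same list and in that of elongation factors, where 8 of 10 genes were above 0 (0.62 ± 0.16 SE, adjusted p = 0.11 by edgeR). *Eef1d* was the gene with the next smallest p there (0.38 ± 0.11 SE). Of 37 initiation factor genes 31 were above 0 (median 0.24, 12 with an unadjusted p under 0.05, 0 called), led by *Eif3a* (0.51 ± 0.12 SE) and *Eif5b* (0.53 ± 0.13 SE).

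The list of TOP regulators and the mTOR pathway held the other calls, both higher in old mice, and 14 of its 18 genes were above 0. *Larp1*, whose product binds TOP mRNAs, had 17.5, 17.4, 16.7 and 18.4 CPM in young and 52.1, 39.2 and 48.5 CPM in old mice (log2 fold change 1.41 ± 0.13 SE, adjusted p = 0.02 by edgeR). *Eif4ebp2*, which holds the cap-binding protein Eif4e inactive until mTOR phosphorylates it, had 13.5, 15.7, 13.8 and 14.0 CPM in young and 36.4, 24.9 and 27.8 CPM in old mice (1.06 ± 0.16 SE, adjusted p = 0.0308 by edgeR). The groups stood well apart for both genes. *Larp1* was past the threshold in 3 of the 7 fits that leave out a library and *Eif4ebp2* in 1, with adjusted p up to 0.108 and 0.128 in the others (edgeR). Their log2 fold changes were 1.33 to 1.52 and 0.89 to 1.17 in these fits, and with RSEM's effective length as an offset *Eif4ebp2* had a log2 fold change of 0.72 (adjusted p = 0.0827, edgeR). Across the 8 translation lists, which share 10 genes, 130 genes were tested and these 3 were called (2.31%, against 0.803% of all genes tested).

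Ribosome biogenesis genes were spread about 0, with 23 of 40 above it, a median log2 fold change of 0.02 and 0 called. *Ebna1bp2* (0.49 ± 0.11 SE) and *Utp20* (0.64 ± 0.17 SE) had the smallest p. Host genes of small nucleolar RNAs, whose spliced transcripts also begin with TOP motifs, had 3 of 8 above 0 and a median of -0.12, with *Snhg5* at -0.64 (SE 0.23, adjusted p = 0.184 by edgeR) and *Snhg1* at -0.16 (SE 0.21). Of 6 genes that bind nascent chains or guard new ribosomal proteins, 4 were above 0, with *Bccip* at 0.48 (SE 0.16) and *Naca* at 0.25 (SE 0.12).

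The mitochondrial ribosome, which is encoded by a separate set of nuclear genes, gave a more uniform picture. Of 78 mitochondrial ribosomal protein genes 73 were above 0, with a median log2 fold change of 0.30, and 31 had an unadjusted p under 0.05, all higher, led by *Mrps25* (0.60 ± 0.13 SE, adjusted p = 0.0712 by edgeR) and *Mrps18a* (0.51 ± 0.12 SE). They took 0.214% to 0.242% of the expected counts in young and 0.259% to 0.288% in old mice, without overlap, and unlike the cytosolic members they were not lowest in 23C. Of 75 nuclear genes for respiratory chain subunits 69 were above 0, with a median of 0.28. *Cox6a2*, at 1.14 (SE 0.27), and *Cox5b*, at 0.56 (SE 0.14), had the smallest p. In both lists 0 genes were called. Among the 563 other genes with at least 50 CPM and a length up to 1200 bases, 81.5% were above 0 (median 0.26). Of them 34.1% had an unadjusted p under 0.05. Genes of both lists were not removed from that group. The differences between these lists, that group and the cytosolic ribosomal protein genes were not tested.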

How the data were processed

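RNAseq of sorted microglia from 3 old and 4 young mice was analysed. The authors mapped reads to GRCm38 with STAR and quantified them with RSEM on GENCODE m15 (FastQC 0.11.5 in the submitters' notes; versions of STAR and RSEM not given in the sources used here). They deposited expected counts, not normalized, and TPM, scaled within each library, which RSEM made by dividing reads that match several genes.

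Expected counts were rounded. Genes had to exceed 10 in 1 library or more, and X, Y and the mitochondrial genome were removed by GENCODE vM21. In it 310 identifiers had no chromosome, and this step did not remove them. TMM factors and the quasi-likelihood test on 17559 genes, with age as the only term, came from edgeR 4.0.16 under R 4.3.3 (biological coefficient of variation 37.2%), calls having a Benjamini-Hochberg adjusted p under 0.05. CPM are TMM-normalized. Alternatives were limma-voom 3.58.1, DESeq2 1.42.0, RLE and upper-quartile factors, other filters, offsets, sums with pseudogenes, and each library left out. Windows of 50 bases were matched to all GENCODE vM21 transcripts. The p-values of the fits set the difference between ages against the spread between mice. Scripts were tested on simulated data.

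Members and gene lists were chosen with earlier results of these data known. The rule for named genes took called members, the 5 smallest p in each direction, the 3 highest TPM in young mice, paralogs and X-linked members, and for other lists the 2 smallest p; other genes were named after their values were seen. Values of 3 members by name are not reported here, although counts and medians include them. The positions in the ribosome, the pseudogene sums and the ratios of paralogs were chosen after the values were seen.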

Additional observations from a re-analysis of the deposited data

Results flagged for a closer look

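In 5 of 43 groups of 4 young values, 1 library stood so far from its neighbour that the gap, divided by the range, passed Dixon's 95% critical value for 4 samples. Chance gives about 1 in 20. For *Rpl6* (ratio 0.838), *Rps27* (0.831) and *Rps7* (0.840) it was 23C, the lowest, at 380, 262 and 160 CPM, whereas the other young mice had 477 to 495, 501 to 550 and 222 to 233 CPM. For *Cox6a2* (0.898) it was also 23C, at 8.43 CPM against 13.6 to 14.2 CPM. For *Eif3a* (0.851) 23C was the highest, at 157 CPM against 130.4 to 134 CPM.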

How the results depend on the processing

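No paired analysis was possible because the labels give the age groups no shared replicate numbers. The count of members called was 0 in every fit with edgeR or limma-voom, leaving out libraries included, 7 with DESeq2 and 2 at an adjusted p under 0.1. The members' median log2 fold change stayed above 0 in all fits, at 0.11 to 0.24 with each library left out (0.09 to 0.24 for the large, 0.12 to 0.26 for the small subunit) and at 0.11 with the trend of gene length removed. Over the 3 autosomal members with whole counts it was -0.14. The share of the libraries differed by 0.18 percentage points between ages, or 0.0723 to 0.266 with each library left out, and by -0.178 as a share of TPM with all copies. Over all genes, 141 calls became 1399 with DESeq2, 288 without a filter, 228 with the CPM filter, 637 at an adjusted p under 0.1, and 1 to 159 with each library left out. Of the other translation genes, DESeq2 called 16 in place of 3, and 0 to 2 were called with each library left out. *Rpl39* changed sign with the length trend removed (-0.033), with -ps rows (-0.070) and with all copies (-0.10), and ran from -0.060 to 0.16 with each library left out, as did *Rps27* (-0.10 to 0.20), *Rps4l* (-0.46 to 0.050) and *Rpl36a* (-0.00255 to 0.19). Except where a construction shows it, the cause was not tested. The number of mice, 3 and 4, limits the precision, and without molecular identifiers PCR copies are counted as reads.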
